A study of Homo sapiens with 6 samples.

Results

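The genes described here are the core of the transforming growth factor beta (TGF-β) pathway: the ligand genes TGFB1 and TGFB2, the receptor genes TGFBR1 and TGFBR2, the SMAD genes SMAD2, SMAD3, SMAD4 and SMAD7, the SMAD co-repressor gene SKIL, and TGFB2-OT1, a noncoding RNA annotated inside TGFB2. These 10 genes were taken by name from the 58825 genes of the deposited gene table, and their 83 transcripts from the 208460 of the transcript table. TGFB1 was found by its Ensembl identifier ENSG00000105329, since the files list that identifier under the name AC011462. The other 9 genes were found under their own names. RNA came from PC9, an epithelial lung adenocarcinoma line that carries an activating EGFR mutation. Its cells overexpressed FOXM1, which drives transcription of mitotic genes, either as the A allele of the variant rs3742076 (3 libraries) or as its G allele (3 libraries). Cells of every library received the EGFR inhibitor gefitinib at 100 nM for 24 h. The labels name neither the construct nor the number of clones, and no cells without overexpressed FOXM1 or without gefitinib were analysed here. The comparison that the design names is G against A.

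TGF-β ligands are secreted in a latent form and, once released, bind TGFBR2, which then phosphorylates TGFBR1. TGFBR1 phosphorylates SMAD2 and SMAD3, which join SMAD4, enter the nucleus and regulate transcription. SMAD7 blocks the receptor and SKIL represses the SMAD complex, and both genes are themselves induced by the pathway, so that they act as negative feedback. In epithelial cells the pathway is known for growth arrest and for the epithelial-mesenchymal transition.

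Both tables hold FPKM, a fragment count divided by transcript length in kilobases and by library depth. Estimated depth was 19825000 to 23355000 read pairs per library. FOXM1 mRNA was at 25.5, 10.5 and 10.1 FPKM in A replicates 1, 2 and 3, and at 14.6, 14.3 and 13.96 FPKM in the G replicates, so A replicate 1 stood apart. All 8 epithelial markers reached 1 FPKM in at least 1 library, and their summed level was 2814 to 3461 FPKM in A and 2705 to 2889 FPKM in G. CLDN4 among them varied widely within both groups, at 3.02, 93.95 and 1.49 FPKM in A and at 69.4, 0.504 and 75.8 FPKM in G. Of the 4 lung lineage markers 0 reached 1 FPKM, and NKX2-1, which defines that lineage, stayed below 0.2 FPKM. The fibroblast markers DCN and LUM were listed without an estimate in every library. The summed level of that list of 8 was 2.01 to 2.49 FPKM in A and 2.29 to 2.86 FPKM in G, most of it from COL1A1, the 1 marker that reached 1 FPKM, at 1.63 to 1.85 FPKM in A and 1.72 to 2.25 FPKM in G.

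TGFB2-OT1 was the only gene of the 10 that passed the test, and it was lower in the G libraries. It was at 3.40, 3.81 and 3.44 FPKM in A replicates 1, 2 and 3, and at 0.118, 0.0569 and 0.105 FPKM in the G replicates. Every A library was far above every G library, and the G mean was 0.0262 of the A mean. On the scale of log2(FPKM + 1), which understates the change of low genes, the difference was -2.06 with a 95% interval of -2.26 to -1.86. The limma adjusted p over all tested genes was 0.00196. By the same rule 14 of 12787 genes (0.109%) were called, 10 of them (0.0782%) lower in G. TGFB2-OT1 reached 1 FPKM only in the A libraries, so it entered the test through the group in which it was high. The call was kept without each library in turn, but these fits used the filter set once on all 6 libraries. Had the filter been reapplied, TGFB2-OT1 would not have been tested in the fits that left out an A library. With the replicate number as a block in the fit, the call was lost (limma adjusted p = 0.26), and 0 of 12787 genes were called. Summed with TGFB2, the gene that contains it, it has no row of its own, and that sum was not called. In the authors' deposited gene table the log2 fold change of TGFB2-OT1 was -5.25 and its q-value 7.53e-23. For its single transcript, with the same fold change, the deposited q-value was 0.0116. The authors' test is not stated in the sources used.

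TGFB2, the ligand gene that contains TGFB2-OT1, was at 1.87, 1.42 and 1.63 FPKM in the A replicates and at 2.59, 2.13 and 2.54 FPKM in the G replicates. The groups did not overlap, and here the G libraries were the higher ones. The log2 difference was 0.37 (95% interval 0.13 to 0.62), which did not pass over all genes (limma adjusted p = 0.19). The levels assigned to the noncoding RNA and to the ligand mRNA thus differed in opposite directions, with a called difference for the noncoding RNA alone. Because the annotated RNAs overlap, as described next, these levels are not separate measurements of each RNA.

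Both genes lie on the plus strand of chromosome 1 and share bases. TGFB2-OT1 is a single exon of 1371 bases (218442626 to 218443996, GRCh38), and all of these bases lie in exon 7 of TGFB2, its last (218441204 to 218444619). It begins 1267 bases after the last coding base of TGFB2 and so lies in the 3′ untranslated region. A read from this stretch fits both annotated RNAs. The levels of both were therefore put on the same footing as FPKM times length in kb, summed over the transcripts of each gene, a quantity proportional to read pairs.

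On that footing TGFB2 was at 11.3, 8.60 and 9.83 in the A replicates and at 15.7, 12.9 and 15.4 in the G replicates. TGFB2-OT1 was at 4.66, 5.23 and 4.72 in A and at 0.161, 0.0780 and 0.143 in G. The mean of TGFB2 was 4.72 higher in G, and the mean of TGFB2-OT1 was lower, with a difference of -4.74. These 2 differences nearly offset each other.

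The sum of both was at 15.97, 13.8 and 14.6 in the A replicates and at 15.8, 12.97 and 15.5 in the G replicates. Its log2 difference was -0.005 ± 0.11 (SE, n = 3 a group), with p = 0.9 in an exact two-sided permutation test whose smallest possible p is 0.1 at this size. With the 2 genes entered as 1 row of the gene table, the difference was -0.003 with a 95% interval of -0.22 to 0.21 (limma adjusted p = 0.99). TGFB2-OT1 made up 29.2%, 37.8% and 32.4% of the sum in the A replicates, and 1.02%, 0.602% and 0.925% in the G replicates. In estimated read pairs it held 93.6 to 120.04 in A libraries and 1.58 to 3.48 in G libraries, of a total for both genes of 288.5 to 345.2 and 262.1 to 361.95. What set the split of the reads between the overlapping RNAs was not tested.

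**Figure D1:**
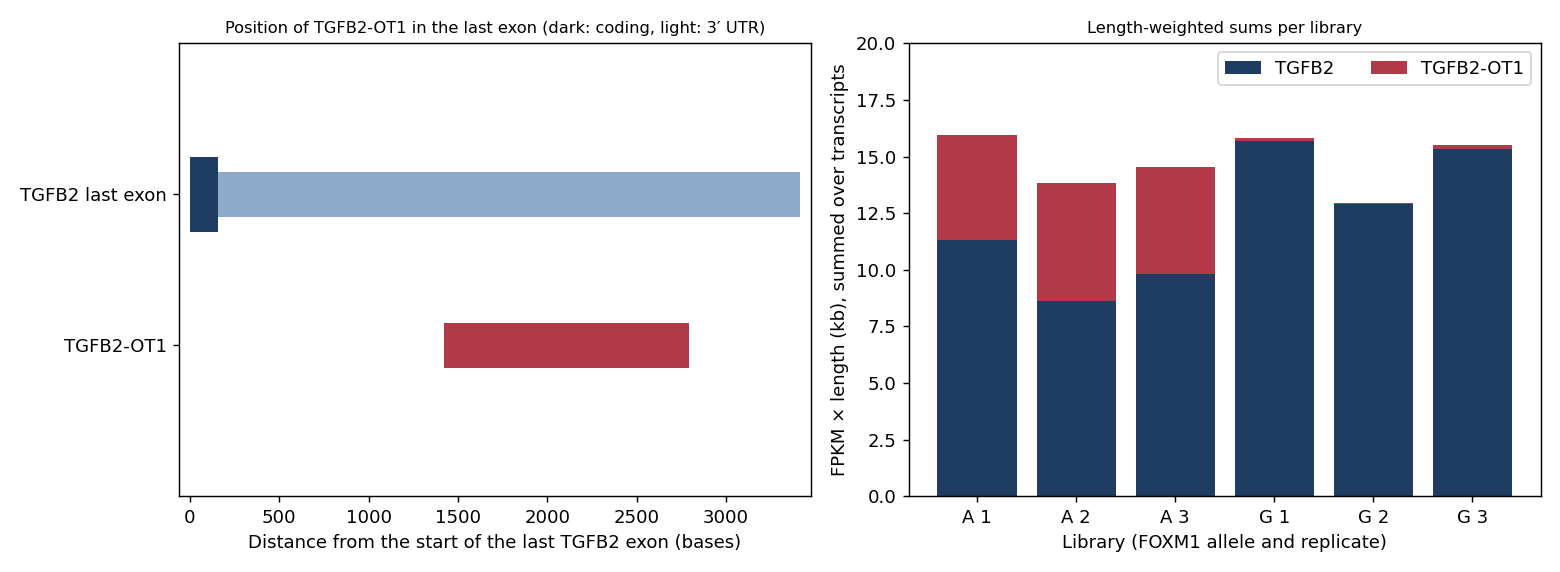
Left, the position of TGFB2-OT1 within the last exon of TGFB2, in bases from the start of that exon. Right, FPKM times length in kb for TGFB2 (blue) and TGFB2-OT1 (red), stacked for each library. The red part is 4.66 to 5.23 in the A libraries and at most 0.161 in the G libraries, while the full bars span 13.8 to 15.97 in A and 12.97 to 15.8 in G.

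Side by side at transcript level, the long TGFB2 mRNA ENST00000366930 carried 92.6% to 99.99% of the TGFB2 signal in each library. It was at 1.93, 1.36 and 1.67 FPKM in A and at 2.67, 2.18 and 2.56 FPKM in G (log2 difference 0.39, 95% interval -0.02 to 0.80, limma adjusted p = 0.65 over transcripts). ENST00000366929, a form with an additional coding exon, had an estimate in A replicate 2 alone, at 0.126 FPKM. The short ENST00000488793 reached 0.870 FPKM in G replicate 3 and ENST00000479322 had no estimate in any library. ENST00000625474, the only TGFB2-OT1 transcript, holds the same values as the gene, so its call here is not a second measurement. It was called lower in G (limma adjusted p = 0.025), among 44 of 29990 transcripts (0.147%). As for the gene, it passed the filter only through the A libraries. That transcript call was lost when any 1 of the 6 libraries was left out. It was the only call among the 16 transcripts of these genes that passed the filter on low values.

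TGFB1, the ligand most studied in epithelial cancer, did not separate the groups. It was at 24.9, 28.4 and 24.3 FPKM in the A replicates and at 25.1, 25.97 and 23.7 FPKM in the G replicates, so the groups overlapped. The log2 difference was -0.05 with a 95% interval of -0.23 to 0.13 (limma adjusted p = 0.76). ENST00000221930 held at least 98.5% of its signal in every library. Genes on the opposite strand overlap its locus, among them HNRNPUL1, at a mean of 48.8 FPKM in A and 46.5 FPKM in G. That locus includes ENST00000598758, which reaches well beyond the main transcript and held at most 0.423% of the signal. Which of these genes overlap the main transcript was not examined. Whether the authors' counting used strand is not given in the sources used here.

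TGFBR1, the type I receptor kinase, was at 13.9, 13.2 and 13.2 FPKM in the A replicates and at 17.2, 15.3 and 15.96 FPKM in the G replicates. All G libraries were above all A libraries, by 1.20 times on average. The log2 difference was 0.25 (95% interval 0.10 to 0.40), and it did not pass over all genes (limma adjusted p = 0.18). TGFBR2, the type II receptor that binds the ligand first, was at 8.55, 7.60 and 8.53 FPKM in A and at 8.92, 8.30 and 8.29 FPKM in G. Its groups overlapped, and the log2 difference was 0.04 (95% interval -0.12 to 0.21, limma adjusted p = 0.76).

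Each receptor gene has a longer and a shorter coding form, which took very different estimated shares from library to library. Their coding sequences differ by a short stretch. The annotated transcripts also differ at their ends, and what set the estimated shares was not tested. The stretches are printed below, since they define the forms compared. They are shown with 18 bases on either side as they read in the spliced longer form (GENCODE release 29, GRCh38). Capitals mark the bases that the longer form has and the shorter form lacks. The SMAD2 exon, described further on, is shown with them.
TGFBR1 (chr9:99132497-99132508, plus strand, start of exon 3 of ENST00000552516): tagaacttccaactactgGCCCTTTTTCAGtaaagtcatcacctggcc
TGFBR2 (chr3:30623199-30623273, plus strand, exon 2 of ENST00000359013): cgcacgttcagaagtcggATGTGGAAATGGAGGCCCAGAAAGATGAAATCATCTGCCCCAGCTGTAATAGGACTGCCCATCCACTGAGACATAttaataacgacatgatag
SMAD2 (chr18:47870475-47870564, minus strand, exon 3 of ENST00000402690): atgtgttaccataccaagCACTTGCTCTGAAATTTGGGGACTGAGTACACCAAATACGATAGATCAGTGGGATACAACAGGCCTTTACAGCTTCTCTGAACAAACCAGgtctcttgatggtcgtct

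The stretches are 12 bases (4 codons) in TGFBR1, 75 bases (25 codons) in TGFBR2 and 90 bases (30 codons) in SMAD2, so each keeps the reading frame. Of the FPKM of all TGFBR1 transcripts that span the position, those with the 12 bases held 0.00233%, 76.7% and 70.9% in A replicates 1, 2 and 3. In the G replicates they held 27.4%, 65.5% and 67.6%. In A replicate 1 almost none of the signal was thus assigned to the longer form, and the next lowest share was in G replicate 1. These shares are estimates of how reads split between overlapping transcripts, and reads over the stretch itself were not examined. The pair of main transcripts showed the same swing, with ENST00000374994, the shorter form, at 14.5 FPKM in A replicate 1 and at 3.30 and 3.99 FPKM in the other A libraries.

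For TGFBR2 the form with the additional exon, known as an alternative receptor with a longer extracellular part, held 34.9%, 58.5% and 51.7% in the A replicates. It held 43.9%, 0.166% and 90.2% in the G replicates. G replicates 2 and 3 lay at opposite ends, while the gene level of TGFBR2 in them was 8.30 and 8.29 FPKM. Mean shares were 48.4% ± 12.1 in A and 44.8% ± 45.04 in G (SD, n = 3). The log2 difference of the shorter form ENST00000295754 was -0.16 (limma adjusted p = 0.96). Its 95% interval of -1.75 to 1.43 is wide and holds differences in both directions. The shares themselves were not tested.

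**Figure D2:**
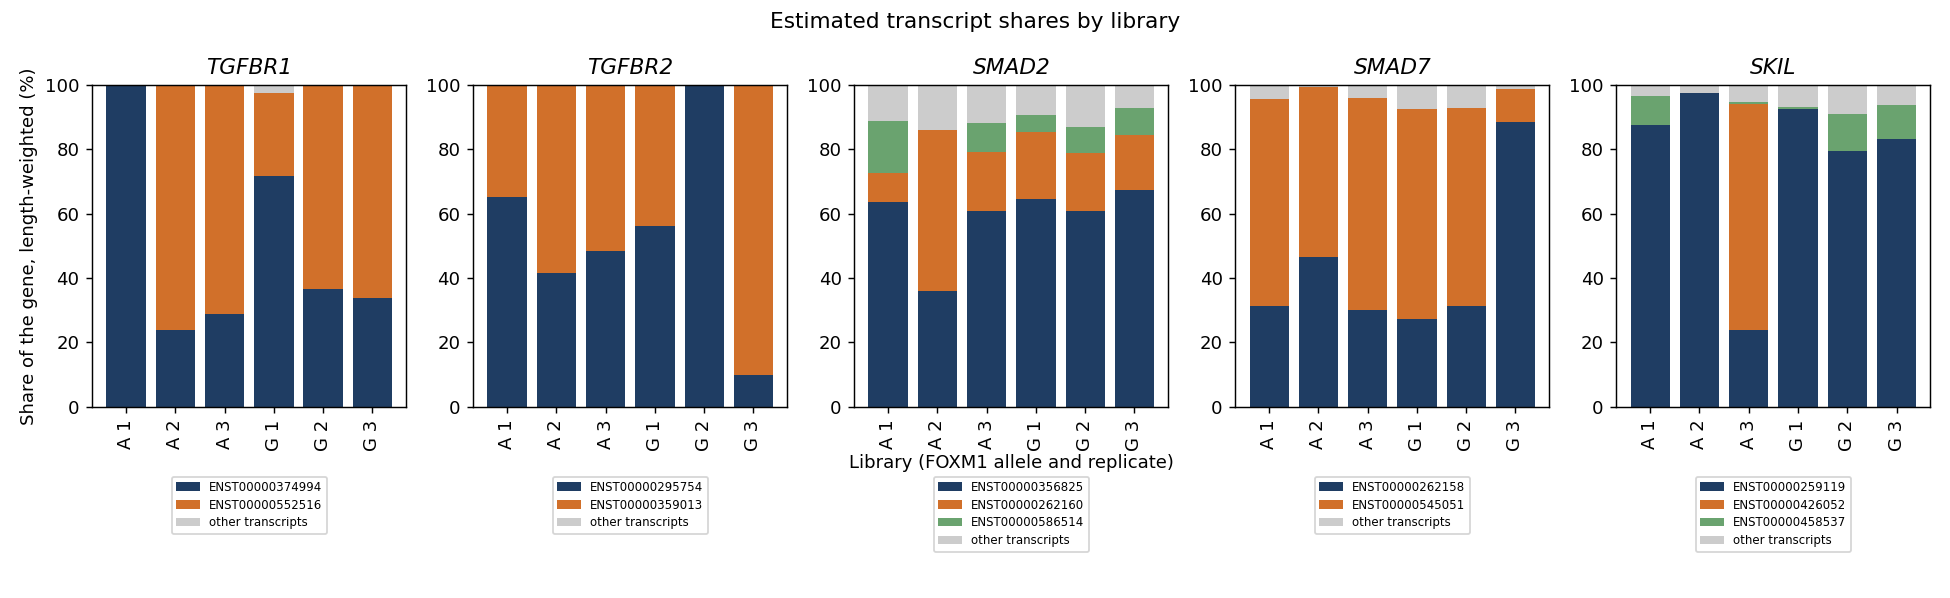
Stacked bars give, for each library (A 1 to G 3), the share in percent of a gene's length-weighted FPKM that each main transcript held, with all other transcripts in grey. In TGFBR1, A replicate 1 and G replicate 1 differ from the others of their group. So do A replicate 2 in SMAD2, G replicate 3 in SMAD7 and A replicate 3 in SKIL. In TGFBR2 all 3 G libraries differ from each other, with ENST00000359013 at 43.8%, 0.165% and 90.2%.

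Neither SMAD3 nor SMAD2, which carry the signal from the receptors, passed the test. SMAD3 was at 13.7, 13.05 and 13.2 FPKM in A and at 14.7, 14.5 and 14.9 FPKM in G. The groups did not overlap, but the gap was small, with a G mean of 14.7 and an A mean of 13.3 FPKM. The log2 difference was 0.13 (95% interval 0.01 to 0.25, limma adjusted p = 0.26). ENST00000327367 held at least 97.7% of the SMAD3 signal in every library.

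SMAD2 was at 1.36, 1.27 and 1.36 FPKM in A and at 1.44, 1.21 and 1.37 FPKM in G, with overlapping groups and a log2 difference of 0.01 (95% interval -0.19 to 0.20, limma adjusted p = 0.98). Its gene FPKM is spread over 36.4 kb, because the tables include ENST00000262160, a transcript of 34626 bases, and the largest such length for another of the 10 genes was 13.1 kb for SMAD4. The most abundant full-length form, ENST00000356825, was at 3.03, 1.59 and 2.88 FPKM in A and at 3.25, 2.57 and 3.21 FPKM in G. This form lacks the 90-base exon, whose presence is known to keep SMAD2 from binding DNA directly. Transcripts with that exon held 67.9%, 32.7% and 55.6% of the FPKM in the A replicates and 46.6%, 51.98% and 54.6% in the G replicates. Among them is the short ENST00000586514 (828 bases, 6 exons). It was at 9.71 and 5.29 FPKM in A replicates 1 and 3, at 3.35, 4.35 and 4.98 FPKM in G, and without an estimate in A replicate 2. Where estimated, it held most of the FPKM with the exon, so this share is not that of a full-length form. With FPKM weighted by transcript length, a setting chosen after seeing the data, the same share was 29.99%, 59.8% and 31.1% in A and 30.02%, 30.9% and 27.2% in G. A replicate 2 thus went from the lowest to the highest share, and the order of the libraries depended on the weighting.

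SMAD4, the shared partner, was at 2.43, 2.39 and 2.66 FPKM in A and at 2.80, 2.51 and 2.75 FPKM in G. The groups overlapped, and the log2 difference was 0.08 (95% interval -0.10 to 0.25, limma adjusted p = 0.62). ENST00000342988 held 83.7% to 96.7% of its signal.

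Neither feedback gene separated the groups. SMAD7 was at 3.26, 3.40 and 3.10 FPKM in A and at 3.21, 3.37 and 3.32 FPKM in G, within the same narrow range. Its log2 difference was 0.01 (95% interval -0.14 to 0.17, limma adjusted p = 0.92). Below that steady level the estimates for its transcripts exchanged places in a single library. The retained-intron transcript ENST00000545051 was at 4.77, 4.10 and 4.64 FPKM in A and at 4.77, 4.72 and 0.766 FPKM in G. The coding transcript ENST00000262158 was at 1.16, 1.80 and 1.06 FPKM in A and at 0.992, 1.20 and 3.34 FPKM in G, so G replicate 3 alone had more coding than retained-intron transcript. Most of the SMAD7 signal in the other 5 libraries, 52.9% to 65.7%, was assigned to the transcript that does not code.

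SKIL had the largest standard error of the log2 difference among the 10 genes, 0.25. It was at 4.80, 5.16 and 2.34 FPKM in A and at 3.71, 4.26 and 3.01 FPKM in G, and the low library was A replicate 3. The log2 difference was -0.09 (95% interval -0.69 to 0.51, limma adjusted p = 0.88), and its sign depended on single libraries. Leaving out A replicate 3 gave -0.37, whereas leaving out A replicate 1, A replicate 2 or G replicate 3 gave 0.03, 0.07 and 0.02. In A replicate 3 the long mRNA ENST00000259119 was at 0.604 FPKM, against 2.73 to 5.46 FPKM in the other 5 libraries. The shorter coding transcript ENST00000426052 was at 4.63 FPKM there and had no estimate in the other 5.

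**Figure D3:**
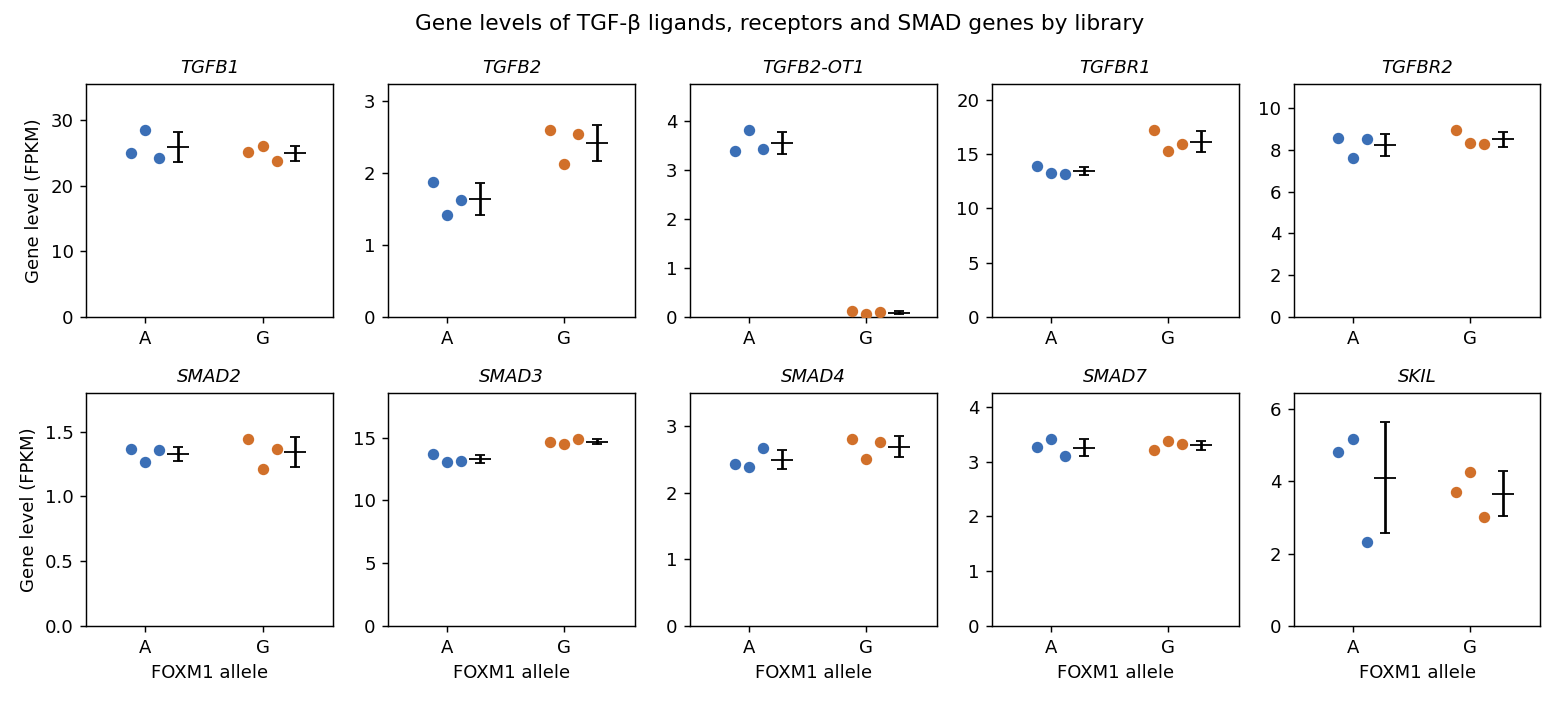
Gene level in FPKM of the 10 genes for each library, by FOXM1 allele (blue A, orange G), with the mean and SD of 3 libraries beside the points. TGFB2-OT1 falls from a mean of 3.55 to 0.0930 FPKM, TGFB2, TGFBR1 and SMAD3 lie higher in G without overlap, and the groups of the other 6 genes overlap.

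In 4 of the 10 genes the groups did not overlap, 3 higher in G (TGFB2, TGFBR1 and SMAD3) and 1 lower (TGFB2-OT1). Over all tested genes 24.9% did not overlap, 15.4% higher and 9.57% lower in G. The median log2 difference of the 10 was 0.03, against 0.02 over all tested genes. Both counts rest in part on TGFB2 and TGFB2-OT1, whose reads overlap.

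On the FPKM scale, averaged over the 6 libraries, TGFB1 ranked first at 25.4, followed by TGFBR1 at 14.8 and SMAD3 at 13.98, whose ranges over the libraries overlapped. TGFBR2 followed at 8.37, apart from its neighbours. SKIL at 3.88 overlapped SMAD7 at 3.28, and SMAD4 at 2.59 overlapped TGFB2 at 2.03. TGFB2-OT1 at 1.82 spanned 0.0569 to 3.81 and SMAD2 came last at 1.33, on its long annotated length.

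The other genes of the pathway were read from a list of 112 genes, of which 81 passed the filter. A single gene passed the test, higher in G, and 0 passed in the lower direction. Over all genes, 4 of 12787 (0.0313%) were called higher and 10 (0.0782%) lower. The gene called, SPSB1, was placed on the list with its earlier call in these data known, so nothing is read from this count. Positive log2 differences were found for 55 of the 81, against 7045 of all 12787 tested genes, and the median was 0.07 against 0.02 (0.03 against 0.0008 with quantile normalization). The groups did not overlap for 19 of the 81 genes higher and 5 lower in G, against 15.4% and 9.57% of all tested genes.

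SPSB1 is an adaptor of a ubiquitin ligase that is known to bind TGFBR2 and to dampen TGF-β signalling. It was at 4.44, 4.33 and 5.62 FPKM in A and at 10.2, 9.74 and 10.1 FPKM in G, with every G library above every A library. The log2 difference was 0.93 ± 0.10 (SE, limma adjusted p = 0.046). The call was lost without A replicate 1 (adjusted p = 0.081), without A replicate 2 (0.16) and without G replicates 1, 2 or 3 (0.12, 0.17 and 0.15). Of the 26 tested regulators of receptors and SMADs, 21 had a positive difference, with a median of 0.09. TRIM33, which binds SMAD complexes, was at 15.04 ± 1.54 and 18.4 ± 0.45 FPKM in A and G (SD, n = 3, limma adjusted p = 0.20). The abundant regulators STRAP and FKBP1A were at 82.7 ± 13.1 and 77.2 ± 5.75 FPKM and at 64.6 ± 11.6 and 67.2 ± 25.1 FPKM.

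Among 12 genes of ligand latency and activation 9 were tested, 5 of them positive, with a median of 0.09 and 0 calls. ITGB6 and ITGAV, subunits of an integrin that releases latent TGF-β, did not pass the test, although their groups did not overlap, as for 15.4% of all tested genes in that direction. ITGB6 was at 11.7 ± 1.17 and 14.6 ± 0.16 FPKM in A and G (limma adjusted p = 0.19) and ITGAV at 6.45 ± 1.695 and 8.82 ± 0.38 FPKM (adjusted p = 0.25). ITGB8, another such subunit, was below the filter at 0.656 ± 0.29 and 0.752 ± 0.044 FPKM, with overlapping groups. LTBP3, which tethers latent ligand, was at 41.1 ± 1.43 and 39.2 ± 3.18 FPKM, and FURIN, the protease that cleaves the precursor, at 28.7 ± 0.62 and 26.9 ± 1.12 FPKM, lower in G without overlap (limma adjusted p = 0.42).

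Of 17 activin, BMP and GDF ligands and antagonists 8 were tested, 4 of them positive, with 0 calls and a median of 0.009. The activin subunit genes were the most abundant of this group, with INHBB at 93.6 ± 1.147 and 86.1 ± 1.04 FPKM (limma adjusted p = 0.23) and INHBA at 51.8 ± 2.98 and 59.6 ± 9.70 FPKM. Among 13 other receptors and co-receptors 9 were tested, 5 of them positive, with a median of 0.03 and 0 calls. The activin receptor ACVR1B was at 11.47 ± 0.99 and 9.96 ± 5.12 FPKM and the decoy receptor BAMBI at 8.69 ± 0.73 and 8.29 ± 0.32 FPKM. TGFBR3, the co-receptor betaglycan, was at 0.929 ± 0.091 and 1.05 ± 0.043 FPKM, and the BMP receptor BMPR1A at 0.894 ± 0.28 and 1.07 ± 0.11 FPKM.

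SMAD5, which carries BMP signals, was the SMAD gene outside the 10 with the smallest p, at 6.77, 6.22 and 6.57 FPKM in A and at 8.23, 8.29 and 8.37 FPKM in G. The groups did not overlap, but the log2 difference of 0.31 ± 0.06 (SE) did not pass over all genes (limma adjusted p = 0.16). SMAD1, the other BMP-regulated SMAD tested, was at 5.37 ± 0.42 and 5.66 ± 0.13 FPKM.

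Of 38 transcriptional targets 26 were tested, 18 of them positive, with a median of 0.06 and 0 calls. BHLHE40, a repressor that hypoxia also induces, was at 74.1 ± 2.43 and 90.7 ± 2.24 FPKM (SD, n = 3, limma adjusted p = 0.15). ID3, a target of BMP signalling, was at 86.2 ± 5.47 and 78.7 ± 5.16 FPKM (adjusted p = 0.40).

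**Figure D4:**
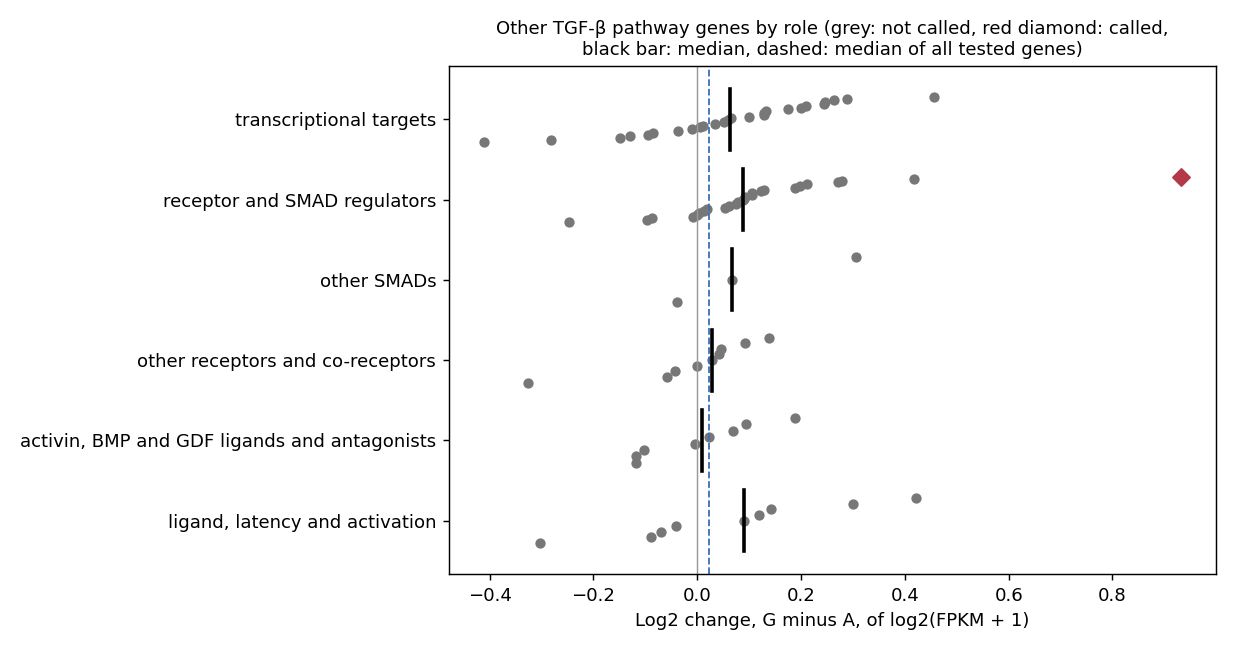
Log2 difference (G minus A, log2(FPKM + 1) scale) of each of the 81 tested pathway genes outside the 10, by role. The red diamond at 0.93 is SPSB1, the single call, black bars are the medians of the roles (0.009 to 0.09) and the dashed line is the median of all tested genes, 0.02.

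The genes whose levels over the 6 libraries were most like those of TGFB2-OT1 were sought over all tested genes outside its locus, by Pearson correlation of log2(FPKM + 1). They were DNM1L, a gene of mitochondrial fission (r = 0.9987), AP001972.5 (r = 0.998) and TALDO1 of the pentose phosphate pathway (r = 0.997). DNM1L was at 9.92, 10.4 and 9.96 FPKM in A and at 7.13, 7.11 and 7.07 FPKM in G. These values describe 6 libraries that fall into the 2 allele groups. A gene lower in G with little spread within the groups gets a high r here, so no shared regulation is read from it.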

How the data were processed

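Poly(A) RNA of 6 PC9 libraries was sequenced as strand-marked read pairs, per the labels. The authors deposited FPKM per gene and per transcript, per the file headers. The deposited comparison of G with A gives a ratio with its log2, and a p-value beside a q-value. The submitters' processing notes name cutadapt 1.9, HISAT2 2.0.4 and StringTie 1.3.4d, and a mouse build. The identifiers are human, however. GENCODE release 29 holds 206348 of the transcripts, and 94.7% of these matched it in GRCh38 position. The authors' test and strand setting are not stated in the sources used. A value of 0.0001 stands for no estimate.

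Values were analysed as log2(FPKM + 1). Genes or transcripts with at least 1 FPKM in at least 3 libraries were tested two-sided with limma 3.58.1 (trend, R 4.3.3), with Benjamini-Hochberg adjustment over all tested features and a threshold of 0.05. The FPKM step of 1 read pair in single-exon genes longer than 400 bases gave the read-pair estimates; 32.5% to 35.3% of their low values were whole within 0.02 read pairs, so no count model was used. Shares of main transcripts weight FPKM by length, whereas shares of forms with the printed stretches are of plain FPKM unless stated. The sum over TGFB2 and TGFB2-OT1 was tested with an exact permutation test. The fit was tested on simulated data. Alternatives changed the pseudocount, filter, scaling, variance model, replicate block and set of libraries. Named were the 10 genes, their transcripts above the filter, any of TGFB2, FOXM1, and, from each role of the list, called genes and those with the 2 smallest p or highest means. A gene that this rule names among the targets is not reported here. For TGFB2-OT1 the 3 most correlated genes were named. Beyond this rule the text names cell type markers, HNRNPUL1, ITGB8, FN1 and ID1. It also names transcripts below the filter, ENST00000262160, ENST00000402690, ENST00000426052 and ENST00000598758. Members and lists were chosen with earlier results of these data known. The labels do not say whether replicates were separate cultures, so p-values may measure technical spread. Python 3.11.15 and pandas 2.3.3 were used.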

Additional observations from a re-analysis of the deposited data

How the results depend on the processing

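Fits without 1 library kept the filter set on all 6 libraries. Of the 10 genes 1 was called, and the number stayed at 1 in 14 of 16 alternatives, among them each fit without 1 library (1 to 1). It was 0 with the replicate block and 0 with the TGFB2 locus summed, where the overlapping gene no longer exists as a row. Under the block 0 of all 12787 genes were called, and TGFB2-OT1 had the same log2 change, -2.06, with an adjusted p of 0.26. The replicate numbers share no stated source. Deviations of same-numbered libraries correlated across genes at 0.0731, 0.0154 and 0.0404. These values are low, but each A library correlated best with the G library of its own number. G replicate 2 correlated almost equally with A replicate 3 (0.0155) and A replicate 2 (0.0154). The count of transcripts called among the 10 genes went from 1 to 0 with a pseudocount of 0.1 or 0.01, without a filter, with a filter of 0.1 FPKM, with the replicate block and without any single library (0 to 0). The count of called pathway genes went from 1 to 0 without a filter, with a filter of 0.1 FPKM, with median-ratio factors, with quantile normalization, without a variance trend and with the replicate block. It was 0 to 1 without 1 library. The causes were not tested.

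The log2 changes of TGFB2 (0.31 to 0.56), TGFBR1 (0.21 to 0.35), SMAD3 (0.11 to 0.23) and SMAD4 (0.02 to 0.15) kept their sign in all 15 alternatives and passed in none. Signs turned for TGFB1 with equal sums per library (0.056), for SMAD2 with median-ratio factors (-0.0079) and quantile normalization (-0.050), and for SMAD7 with the same settings (-0.0028 and -0.032). Without 1 library the ranges were -0.091 to 0.018 for TGFB1, -0.0062 to 0.070 for TGFBR2, -0.026 to 0.045 for SMAD2, -0.012 to 0.040 for SMAD7 and -0.37 to 0.074 for SKIL. The difference of the TGFB2 locus sum was 0.10 with equal sums per library and -0.058 to 0.086 without 1 library. At the estimated depth, the G level of TGFB2-OT1 rests on 1.58 to 3.48 estimated read pairs per library.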

Other observations

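FN1 and ID1 were chosen from the list of pathway targets after their values were seen. FN1, which encodes the matrix protein fibronectin, was at 55.6, 43.8 and 44.6 FPKM in the A replicates and at 67.3, 66.3 and 63.99 FPKM in the G replicates. All G libraries were above all A libraries (log2 difference 0.46, limma adjusted p = 0.16), as for 15.4% of all tested genes. Without A replicate 1 it was the pathway gene called in place of SPSB1, among 20 of 12787 genes called in that fit. ID1, a target of BMP signalling, was at 44.96, 52.1 and 50.8 FPKM in A and at 33.04, 38.6 and 38.9 FPKM in G. Its groups did not overlap either (log2 difference -0.41, limma adjusted p = 0.16), as for 9.57% of all tested genes in that direction.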
